A study of Mus musculus with 12 samples.

Results

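Small nucleolar RNAs (snoRNAs) and small nuclear RNAs are short non-coding RNAs that act inside ribonucleoprotein particles of the nucleus. The genes described here are those with a gene symbol that begins with Snora or Snord and a digit, with Rnu or with Scarna, and whose probe set carries that symbol alone in the platform annotation. Of the 19309 genes with such a probe set, 56 qualified: 31 C/D box RNAs, 20 H/ACA box RNAs, 3 small Cajal body RNAs, 1 spliceosomal RNA (Rnu12) and the histone processing RNA Rnu7. They came from 62 probe sets, and a gene with several was represented by its brightest, judged on the mean of all 12 arrays. Another 60 probe sets with such symbols listed several genes and were not used. The rule chose on names and, within a gene, on the mean over all arrays, and does not itself use the group comparisons below. It was set with earlier results of these data known.

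Total RNA from the thymus of FVB/N mice was hybridised to 12 whole-transcript arrays in 3 groups. The 4 Dnmt3a-deficient tumors were T-cell lymphomas of terminal age from mice whose blood-forming cells lacked Dnmt3a, which sets DNA methylation anew, in the presence of MYC. The 5 control tumors were tumor thymocytes of terminal age labelled as wild type, and the 3 normal samples were wild-type thymocytes without tumor at 24 days after birth. The sources used here give no Cre line, no promoter that drives MYC and no scan batch, and tumor state cannot be told apart from age. The labels do not say that arrays came from separate animals, so p-values measure only the spread between these samples.

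C/D box RNAs carry a C box and a D box, bind the methyltransferase fibrillarin and guide ribose methylation of ribosomal RNA. H/ACA box RNAs fold into hairpins that end in an ACA box, bind the pseudouridine synthase dyskerin and guide pseudouridylation. A few members of both classes, among them U3, U8, U14, U17 and U22, are instead needed for the cleavages that cut the ribosomal precursor. Small Cajal body RNAs guide the same modifications on spliceosomal RNAs. Most vertebrate snoRNAs are released from introns of other genes, often genes for ribosomal proteins, whereas U3, U8, U12 and U7 have promoters of their own. Ribosome production is a main output of MYC in lymphoid cells.

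The class-defining boxes can be read where the RefSeq microRNA table (GRCm38.p6) has an entry inside a member. Its entries cover the first bases of Snord33 and a stretch near the end of Scarna13, which are shown in RNA letters because they carry the C box and the ACA box, in capitals.
Snord33, mmu-miR-5121, chr7:45126925-45126945, minus strand: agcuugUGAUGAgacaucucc
Scarna13, hairpin of mmu-miR-3069-3p, chr12:105031077-105031141, minus strand: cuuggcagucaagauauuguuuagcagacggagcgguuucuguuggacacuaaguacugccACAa
UGAUGA, the C box, starts at base 7 of Snord33. It occurs in 12 of 1674 mature mouse microRNAs (0.72%). The closing ACA of Scarna13 is followed by 3 bases to the end of the RNA, and 35 of the 1674 mature sequences (2.09%) end in these letters. No sequence table used here holds the full RNAs. Their annotated lengths ran from 53 to 275 bases with a median of 95. A probe set inside an intron also reads the unspliced host transcript, so mature RNA and precursor cannot be told apart on these arrays.

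The arrays did not fall cleanly into the labelled groups. The 75th percentile of log2 expression was 8.5 to 8.60 in the 4 deficient tumors and in control tumors 1 and 2, and 8.13 to 8.30 in control tumors 3 to 5 and normal thymocytes. Control tumors 1 and 2 also correlated more closely with the deficient tumors (mean r of 0.972 and 0.971 over all genes) than with the other control tumors (0.956 and 0.951). Dnmt3a had a mean log2 expression of 7.42 ± 0.20 in deficient tumors, 8.67 ± 0.53 in control tumors and 9.48 ± 0.15 in normal thymocytes (SD, n = 4, 5 and 3), and it was lower in deficient than in control tumors (-1.25, adjusted p = 0.0317). Mouse Myc averaged 6.41 ± 0.26 in deficient tumors, 6.65 ± 0.58 in control tumors and 9.6 ± 0.23 in normal thymocytes. The 9 measured T cell markers averaged 10.07 to 10.9 in deficient tumors, 10.15 to 11 in control tumors and 11.66 in each normal sample, which fits thymocytes as labelled. Neutrophil markers averaged 5.61 to 6.30 in deficient tumors, against 8.67 and 8.64 in control tumors 3 and 4, and adipocyte markers averaged 5.39 to 5.65 in deficient tumors, against 9.24 in control tumor 2. In normal samples neutrophil markers averaged 6.88 to 7.32, above all deficient tumors, and macrophage markers averaged 6.98 to 7.85 in deficient tumors, against 6.48 to 6.71 in normal samples. The part of these markers in the differences below was not tested. In these bulk samples fewer cells of a type and less RNA per cell cannot be told apart.

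Relative to the mean of the normal arrays, the median of the 56 small RNA genes lay 0.82 to 1.08 log2 units higher in the deficient tumors, 0.05 to 0.40 higher in the control tumors and -0.16 to 0.12 away in the normal samples. The medians of the deficient tumors did not overlap those of the other groups. The classes differed in how they were spread. H/ACA medians were 1.26 to 1.61 in deficient tumors, 0.26 to 0.88 in control tumors and -0.15 to 0.08 in normal thymocytes, so the 3 groups did not overlap. C/D medians were 0.51 to 0.74 in deficient tumors, -0.19 to 0.10 in control tumors and -0.25 to 0.18 in normal thymocytes, and the last 2 groups overlapped. The median over all 19309 genes stayed between -0.13 and 0.02 on every array. Within groups the small RNA genes scattered more than other genes: their median SD was 0.302 in deficient tumors, 0.529 in control tumors and 0.254 in normal thymocytes, against 0.186, 0.278 and 0.186 over all genes.

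**Figure D1:**
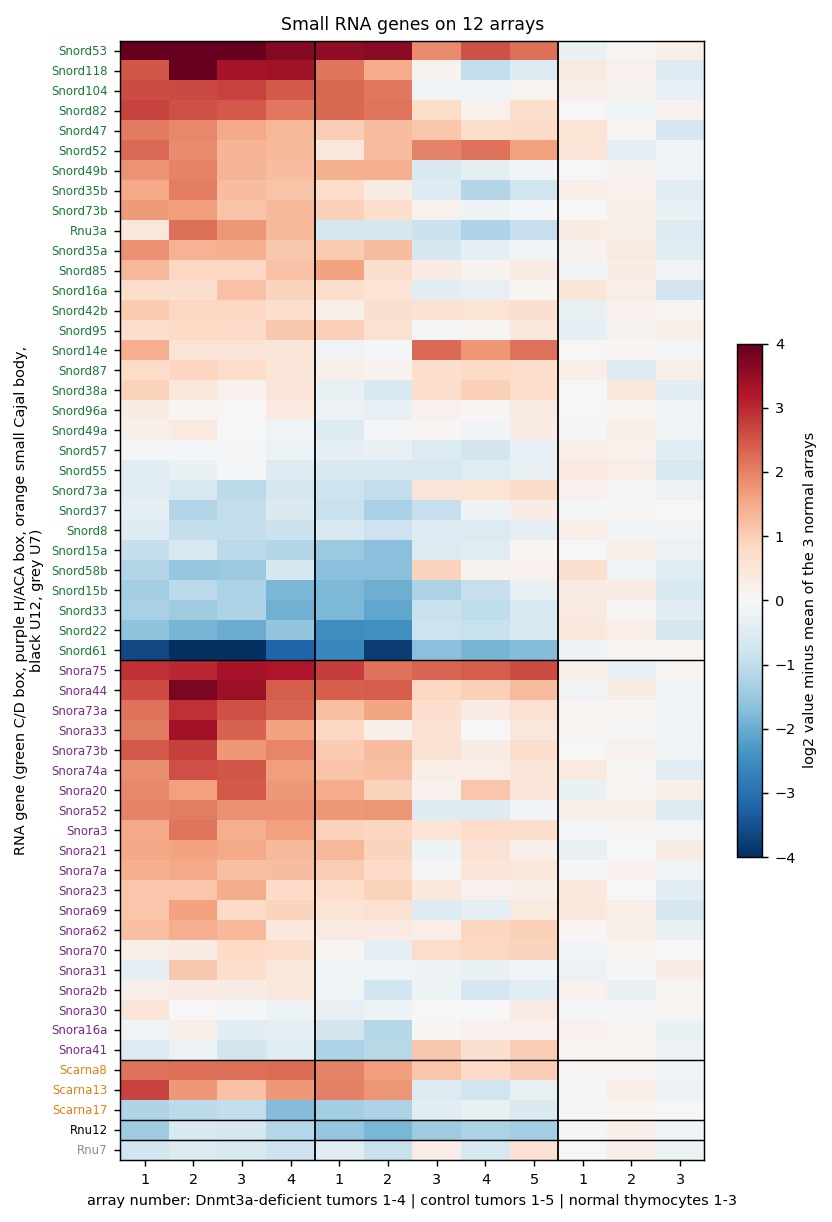
Log2 expression of the 56 small RNA genes (rows, by class) on the 12 arrays (columns), as the difference from the mean of the 3 normal arrays. Colours end at 4 log2 units. Red cells dominate the 4 deficient tumors in the H/ACA block, the C/D block holds both red and blue genes, and control tumors 1 and 2 resemble the deficient tumors for many rows, such as Snord104, Snora52 and Scarna13.

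The first comparison asked whether loss of Dnmt3a went with a different level of small RNAs in the tumors. Of the 56 members 10 were higher in deficient than in control tumors and none was lower at an adjusted p under 0.05, beside 0.818% of all genes called in either direction, 0.59% higher and 0.228% lower. In 21 members all deficient tumors lay above all control tumors and in none below, a separation seen in 6.15% of all genes (3.8% with the deficient tumors higher). The median difference was 0.58 log2 units (all genes -0.01), and 43 of 56 differences were above 0 (48.5% of all genes). At an unadjusted p under 0.05, 32 members (57.1%) were higher, against 12.6% of all genes, and 1 was lower. The brighter 50% of genes, by mean over all arrays, hold 52 of the members. In a fit of these genes alone 11 members were higher, beside 2.02% of the genes called in either direction. The median of these genes was 0.13, and 63.2% of them were above 0, against 41 of the 52 members. At an unadjusted p under 0.05, 57.7% of these members and 20.9% of these genes were higher. The main fit takes its spread from all 3 groups. With only the 2 tumor groups in the fit none was called (smallest adjusted p = 0.0537), and 1 gene of 19309 was. The 10 comprise 4 of 31 C/D RNAs (median difference of the class 0.23) and 6 of 20 H/ACA RNAs (median 0.86).

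Among the C/D RNAs that act in precursor cleavage, U3 and U8 were called higher. Snord14e, a copy of U14 (-0.47, adjusted p = 0.603), and Snord22, the U22 RNA (-0.30, adjusted p = 0.697), were not called. Rnu3a, a copy of U3, which base-pairs with the ribosomal precursor to set up the small subunit, was at 9.47, 11.22, 10.79 and 10.34 in deficient tumors, 8.34, 8.33, 8.16, 7.79 and 8.10 in control tumors and 9.32, 9.23 and 8.49 in normal thymocytes. Every deficient tumor lay above every other sample, and every control tumor lay below every normal one. The difference between the tumor groups was 2.31 ± 0.30 log2 units (SE, adjusted p = 0.0144), 4.97-fold. Snord118, the U8 RNA needed for maturation of the large subunit RNAs, was at 9.01, 12.15, 9.85 and 9.90 in deficient tumors, 8.68, 8.02, 6.67, 5.57 and 5.98 in control tumors and 6.89, 6.71 and 6.02 in normal thymocytes. Its deficient tumors again lay above all other arrays, with deficient tumor 2 far above the rest and control tumors 1 and 2 above the other controls. The difference was 3.25 ± 0.67 (adjusted p = 0.0477), 9.48-fold.

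The 2 other C/D members called are of the guide type. Snord35b was at 10.70, 11.22, 10.42 and 10.33 in deficient tumors, against 9.92, 9.48, 8.66, 8.0 and 8.39 in control tumors, a difference of 1.78 ± 0.35 (adjusted p = 0.0414). Snord73b, inside Rps3a1, was at 10.13, 10.10, 9.55 and 9.72 in deficient tumors, against 9.38, 9.12, 8.57, 8.22 and 8.35 in control tumors, a difference of 1.15 ± 0.24 (adjusted p = 0.0477). In both, control tumors 1 and 2 were the controls nearest to the deficient tumors.

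U17, an H/ACA RNA that acts in early cleavage of the ribosomal precursor rather than as a guide, has 2 copies inside Snhg3 and both rose. Snora73a was at 11.36, 12.12, 11.74 and 11.52 in deficient tumors, 10.39, 10.77, 9.88, 9.54 and 9.81 in control tumors and 9.31, 9.27 and 9.01 in normal thymocytes. The 3 groups did not overlap, and the difference between the tumor groups was 1.61 ± 0.24 (adjusted p = 0.0144). Snora73b was at 11.21, 11.50, 10.48 and 10.72 in deficient tumors, against 9.82, 10.03, 9.38, 9.06 and 9.46 in control tumors, also without overlap, with a difference of 1.43 ± 0.23 (adjusted p = 0.0193). The other called H/ACA members were Snora33, Snora74a (U19), Snora3 and Snora2b. Snora33, inside Rps12, was at 9.69, 10.97, 9.99 and 9.24 in deficient tumors, 8.45, 7.82, 8.19, 7.59 and 8.06 in control tumors and 7.70, 7.67 and 7.48 in normal thymocytes. Its control tumors overlapped the normal samples while its deficient tumors lay above all of them, and the difference was 1.95 ± 0.28 (adjusted p = 0.0144), 3.86-fold. Snora74a, inside Snhg4, was at 9.91, 10.62, 10.53 and 9.72 in deficient tumors, against 9.18, 9.26, 8.32, 8.32 and 8.54 in control tumors (1.47 ± 0.26, adjusted p = 0.0303). Snora3, inside Rpl27a, was at 10.27, 10.90, 10.20 and 10.41 in deficient tumors, 9.69, 9.63, 9.30, 9.50 and 9.46 in control tumors and 8.68, 8.87 and 8.72 in normal thymocytes. It separated all 3 groups, with a difference of 0.93 ± 0.15 between the tumor groups (adjusted p = 0.0194). Snora2b, inside Kansl2, was at 6.71, 6.83, 6.80 and 6.92 in deficient tumors, against 6.31, 5.70, 6.30, 5.81 and 6.04 in control tumors (0.78 ± 0.16, adjusted p = 0.0451).

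**Figure D2:**
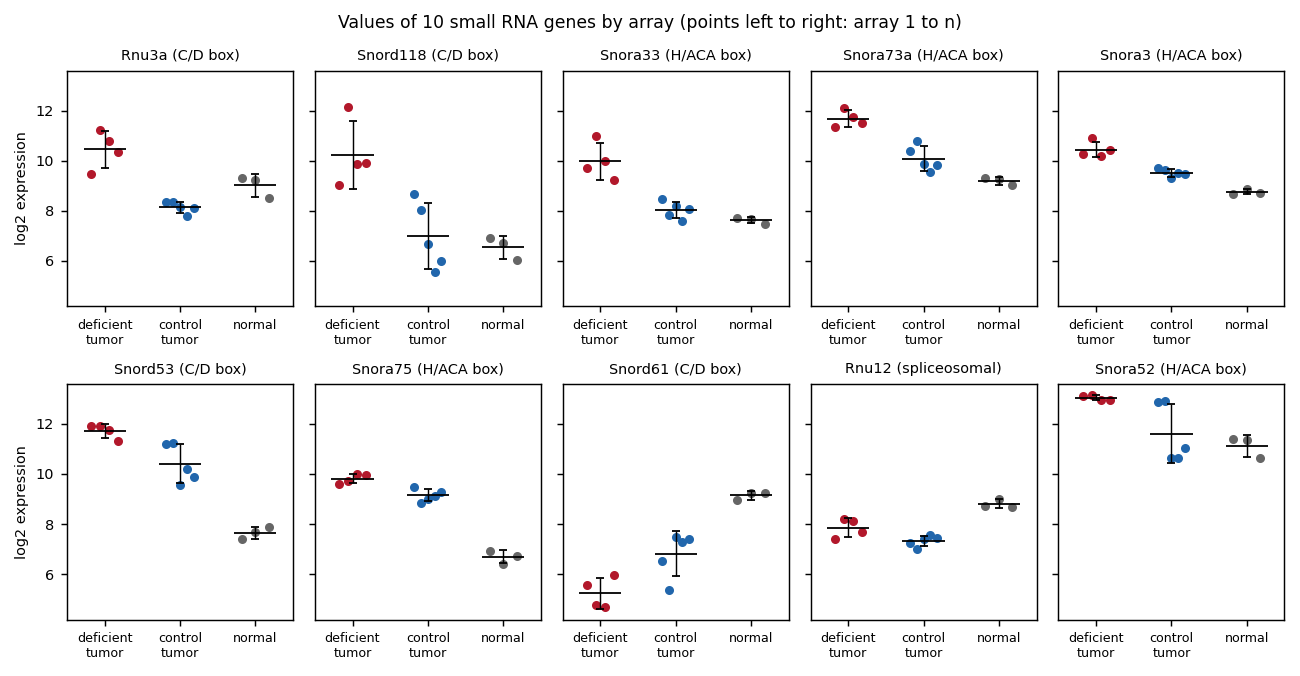
Log2 expression of 10 small RNA genes on each array, with the mean and SD of each group (4 deficient tumors, 5 control tumors, 3 normal samples). Rnu3a, Snord118, Snora33, Snora73a and Snora3 (top row) lie higher in all deficient than in all control tumors. Snord53 and Snora75 are higher in both tumor groups than in normal thymocytes, Snord61 and Rnu12 are lower in both, and Snora52 splits the control tumors.

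The 27 C/D members not called ran from -1.58 to 1.77 and the 14 H/ACA members from -0.56 (Snora41) to 1.48. Snord104 (1.77, adjusted p = 0.0962), Snora44 (1.48, adjusted p = 0.0775) and Snora52 (1.44, adjusted p = 0.128) had the largest positive differences among the 46 members not called, and Snord61 the most negative (-1.58, adjusted p = 0.0817). Snord104 was at 12.54, 12.57, 12.64 and 12.38 in deficient tumors, against 12.22, 12.03, 9.78, 9.77 and 10.04 in control tumors. Control tumors 1 and 2 stood near the deficient tumors and the other controls at the level of the normal samples. The same split appeared in Snora52, at 13.13, 13.17, 12.97 and 12.95 in deficient tumors, against 12.87, 12.91, 10.62, 10.62 and 11.04 in control tumors. Snord14e, a copy of U14 inside Hspa8, showed the reverse, at 11.35, 10.42, 10.41 and 10.40 in deficient tumors, 9.77, 9.87, 12.19, 11.64 and 12.09 in control tumors and 9.90, 9.99 and 9.84 in normal thymocytes, with control tumors 3 to 5 the highest. Terc, the telomerase RNA, which ends in an H/ACA domain but is not a member, was at 11.98, 11.90, 11.73 and 11.85 in deficient tumors, 11.75, 11.54, 7.28, 7.48 and 7.38 in control tumors and 7.15, 7.91 and 6.75 in normal thymocytes.

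The count of calls also depended on control tumors 1 and 2. Without them 29 members were higher and 9 lower, but 25.3% of all genes were then called. With only the arrays of the higher 75th percentile (4 deficient tumors against control tumors 1 and 2) none was called at an adjusted p under 0.05, the smallest being 0.206. Most differences between these 6 arrays were positive: 51 of 56 differences were above 0 (50.1% of all genes), and 31 members were higher and none lower at an unadjusted p under 0.05 (55.4% of members, 4.48% of all genes). With the 75th percentile class as a term in the fit over all arrays, Rnu3a (2.12, adjusted p = 0.0408) and Snora73a (1.11, adjusted p = 0.049) were called, beside 0.347% of all genes. Rnu3a, Snora33 and Snora73a were called in each of the 9 fits that left out 1 tumor, Snora73b in 7, Snora3 in 6, Snora74a in 4, Snord118 in 3 and the other 3 in 2 each. What sets the 75th percentile apart, and its part in the difference, was not tested.

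**Figure D3:**
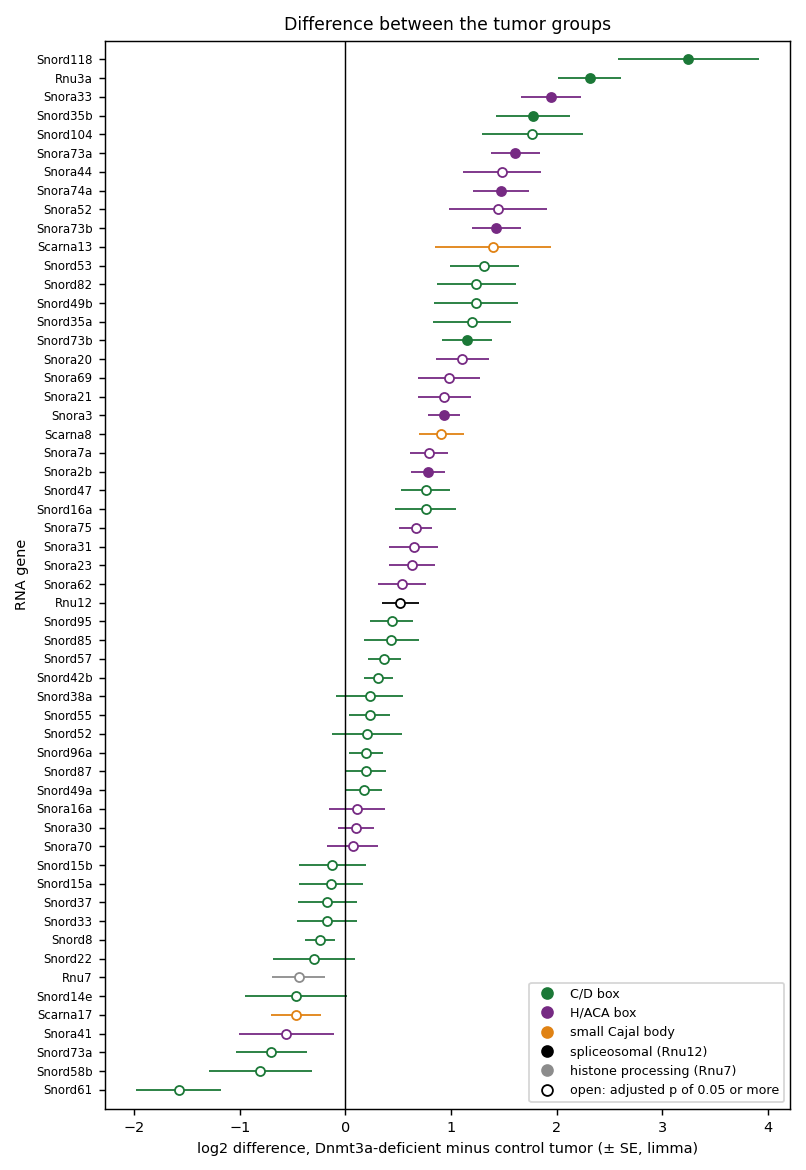
Difference in log2 expression between Dnmt3a-deficient and control tumors for the 56 small RNA genes, with the standard error from limma (4 and 5 arrays). Filled points have an adjusted p under 0.05. All 10 filled points lie right of 0, from Snora2b at 0.78 to Snord118 at 3.25.

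Deficient tumors and normal thymocytes differed in most small RNA genes. At an adjusted p under 0.05, 31 of 56 members were higher and 8 lower, beside 37.6% of all genes called (18.7% higher and 19% lower). In the fit of the brighter 50% of genes, 32 of 52 members were higher and 8 lower, beside 56.4% of these genes called. At an unadjusted p under 0.05, 61.5% of these members and 38.2% of these genes were higher. Ranges did not overlap in 35 members that were higher and 13 that were lower, against 49.7% of all genes (23% higher and 26.7% lower). The median difference was 0.95 (all genes -0.10). Of the 20 H/ACA RNAs 14 were higher and none lower, with Snora41 (-0.49) and Snora16a (-0.19) the 2 with negative differences, and of the 31 C/D RNAs 15 were higher and 6 lower. All deficient tumors are in the higher 75th percentile class and all normal samples in the lower. With the class as a term, 17 of the 39 calls were kept and 22 lost, and 7 other members were called higher (18.4% of all genes called). The 16 kept among the higher calls are Snord42b, Snord47, Snord52, Snord53, Snord87, Snora3, Snora7a, Snora20, Snora33, Snora44, Snora62, Snora73a, Snora73b, Snora74a, Snora75 and Scarna8. Of the 8 lower calls only Snord61 was kept (-2.46).

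Snord53, a C/D RNA inside Wdr43, had the largest increase. It was at 11.92, 11.91, 11.77 and 11.31 in deficient tumors, against 7.39, 7.70 and 7.87 in normal thymocytes, without overlap between the groups (4.08 ± 0.37, adjusted p = 4.2e-06), a 16.9-fold difference. Snord118 followed at 3.69 ± 0.76 (adjusted p = 0.00214). Snord104, inside the non-coding gene Gm36220, rose by 2.60 ± 0.54 (adjusted p = 0.0023). Snord82, inside Ncl, was at 10.83, 10.67, 10.57 and 10.23 in deficient tumors, against 8.14, 7.96 and 8.28 in normal thymocytes (2.45 ± 0.43, adjusted p = 0.000643). Snord47 (1.71, adjusted p = 0.000249) and Snord52 (1.70, adjusted p = 0.00331) were next in order. The other 9 C/D members that rose, U3 among them, did so by 0.70 (Snord87) to 1.59 (Snord49b), and the 10 not called had differences from -1.23 (Snord58b) to 0.86 (Snord16a).

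The C/D RNA with the largest decrease was Snord61, inside Rbmx on the X chromosome. It was at 5.55, 4.75, 4.67 and 5.96 in deficient tumors, against 8.95, 9.25 and 9.25 in normal thymocytes, with all normal samples above all deficient tumors (-3.92 ± 0.46, adjusted p = 2.98e-05). Snord22, the U22 RNA needed for small subunit maturation, was at 8.57, 8.33, 8.21 and 8.60 in deficient tumors, against 10.59, 10.46 and 9.50 in normal thymocytes (-1.76 ± 0.45, adjusted p = 0.00749). U3 was higher in the same comparison (1.44, adjusted p = 0.00467), as was U8. None of these 3 calls held with the 75th percentile class as a term, where Snord22 differed by -0.09 (adjusted p = 0.904), Rnu3a by 1.13 (adjusted p = 0.17) and Snord118 by 1.41 (adjusted p = 0.326). Snord33 (-1.46, adjusted p = 0.00333), whose C box is shown above, Snord15b (-1.37, adjusted p = 0.00949), Snord15a (-0.96, adjusted p = 0.0443) and Snord8 (-0.82, adjusted p = 0.00163) also fell. Snord15a was called in only 1 of 7 fits that left out a sample, and with the class as a term its difference was 0.30 (adjusted p = 0.561).

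Among the H/ACA RNAs, Snora75, inside Ncl, was at 9.61, 9.70, 10 and 9.94 in deficient tumors, against 6.94, 6.41 and 6.73 in normal thymocytes. The ranges lay far apart (3.12 ± 0.18, adjusted p = 3.33e-07). Snora44, inside Snhg12, was at 10, 11.16, 10.82 and 9.82 in deficient tumors, against 7.27, 7.69 and 7.23 in normal thymocytes (3.05 ± 0.42, adjusted p = 0.000109). Snora73a (2.49, adjusted p = 1.56e-05), Snora33 (2.35, adjusted p = 9.83e-05), Snora73b (2.22, adjusted p = 3.17e-05) and Snora74a (2.15, adjusted p = 0.00012) also rose. The other 8 that rose did so by 1.09 (Snora62) to 1.94 (Snora20), and the 6 not called had differences from -0.49 (Snora41) to 0.52 (Snora70).

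The small Cajal body RNAs split. Scarna8 (U92), inside Haus6, was at 8.74, 8.76, 8.77 and 8.80 in deficient tumors, 8.54, 8.21, 7.67, 7.33 and 7.54 in control tumors and 6.59, 6.67 and 6.4 in normal thymocytes. The groups did not overlap, and it was higher in deficient tumors than in normal thymocytes by 2.21 ± 0.24 (adjusted p = 1.77e-05). Scarna13 (U93), whose ACA box is shown above, was at 11.26, 10.29, 9.74 and 10.30 in deficient tumors, 10.59, 10.35, 8.01, 7.78 and 8.28 in control tumors and 8.49, 8.85 and 8.37 in normal thymocytes. Control tumors 1 and 2 lay among the deficient tumors and the other controls below all normal samples, and the difference from normal was 1.83 ± 0.63 (adjusted p = 0.0358), called in only 1 of 7 fits that left out a sample. Scarna17 (U91) was at 11.18, 11.35, 11.42 and 10.66 in deficient tumors, 11.04, 11.16, 11.95, 12.14 and 11.82 in control tumors and 12.33, 12.48 and 12.37 in normal thymocytes. Here the normal samples were the highest, and the difference was -1.24 ± 0.27 (adjusted p = 0.00272).

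The only spliceosomal RNA measured, Rnu12, binds the branch site of the rare introns removed by the minor spliceosome. It was at 7.39, 8.19, 8.13 and 7.68 in deficient tumors, 7.25, 6.99, 7.39, 7.55 and 7.44 in control tumors and 8.73, 9.01 and 8.68 in normal thymocytes. All tumors lay below all normal samples, by -0.96 ± 0.20 in deficient tumors (adjusted p = 0.0025) and -1.48 ± 0.20 in control tumors (adjusted p = 0.000116). The deficient and control tumors overlapped (0.52 ± 0.18, adjusted p = 0.144). Rnu7, the U7 RNA that directs 3′ end formation of replication-dependent histone messages, was at 3.84, 4.01, 3.97 and 3.74 in deficient tumors, 4.11, 3.68, 4.82, 3.93 and 5.13 in control tumors and 4.58, 4.76 and 4.36 in normal thymocytes. It was dim on every array and was not called in any comparison (deficient minus normal -0.68, adjusted p = 0.0817). With 1 gene each, these values say nothing of other spliceosomal RNAs, which were not analysed here.

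Control tumors and normal thymocytes differed in fewer members, 12 higher and 7 lower, beside 24.4% of all genes called (13% higher and 11.3% lower). In the fit of the brighter 50% of genes, 13 of 52 members were higher and 9 lower, beside 44.9% of these genes called. Members were thus called about as often as other bright genes. At an unadjusted p under 0.05, 32.7% of these members and 30.3% of these genes were higher. Ranges did not overlap in 11 members that were higher and 6 that were lower, against 27.7% of all genes (13.8% higher and 14% lower). The median difference was 0.33 (all genes -0.08). Of the C/D RNAs 5 were higher and 5 lower, and of the H/ACA RNAs 6 were higher and none lower.

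Snord53 was at 11.20, 11.25, 9.55, 10.19 and 9.87 in control tumors, against 7.39, 7.70 and 7.87 in normal thymocytes (2.76 ± 0.35, adjusted p = 9.21e-05). Snora75 was at 9.46, 8.86, 9.01, 9.11 and 9.29 in control tumors, against 6.94, 6.41 and 6.73 in normal thymocytes (2.46 ± 0.17, adjusted p = 1.47e-06). Neither overlapped its normal samples. Snora44 (1.58, adjusted p = 0.0116), Snord52 (1.5, adjusted p = 0.0079), Scarna8 (1.30, adjusted p = 0.00105) and Snora73a (0.88, adjusted p = 0.0225) rose as well. Snord82 (1.21, adjusted p = 0.0461), Snord47 (0.95, adjusted p = 0.0139), Snora20 (0.84, adjusted p = 0.0389), Snora73b (0.79, adjusted p = 0.0347), Snora3 (0.76, adjusted p = 0.0044) and Snord42b (0.53, adjusted p = 0.0221) complete the 12. Snord61 was at 6.53, 5.36, 7.47, 7.28 and 7.42 in control tumors, against 8.95, 9.25 and 9.25 in normal thymocytes, without overlap (-2.34 ± 0.44, adjusted p = 0.00156). Snord22 (-1.46, adjusted p = 0.023), Snord33 (-1.29, adjusted p = 0.0079) and Snord15b (-1.25, adjusted p = 0.0177) fell, as did Scarna17 (-0.77, adjusted p = 0.0419) and Snord8 (-0.58, adjusted p = 0.0157). U3 and U8 were not called here: Rnu3a differed by -0.87 ± 0.32 (adjusted p = 0.0669) and Snord118 by 0.44 ± 0.73 (adjusted p = 0.708). Both tumor contrasts with normal thymocytes share the 3 normal samples, so their values stand side by side and are not independent. Leaving out any 1 normal sample left 7 members higher (16.6% to 19.8% of all genes called), so this count rests on all 3. With only the arrays of the lower 75th percentile (control tumors 3 to 5 against normal thymocytes), 15 members were higher and 5 lower, beside 23.8% of all genes called.

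Most of these RNAs lie inside another gene, and the arrays measure many of the hosts. For 25 members with a single annotated containing gene on the array, the member minus its host was compared between groups. Strand is not in the tables used, so a host is only the gene whose annotated span contains the RNA. Between deficient and control tumors the difference of member minus host was above 0 in 21 of 25 pairs, and in limma 1 pair was called. Snora33 minus Rps12 was -1.43, -0.52, -1.28 and -1.91 in deficient tumors, against -2.50, -3.16, -3.82, -4.39 and -4.11 in control tumors. The ranges did not overlap (2.31, adjusted p = 0.0165, p = 0.0159 in an exact permutation test, two-sided, which with 126 splits goes no lower). Rps12, a ribosomal protein gene, itself averaged 11.26 ± 0.16 in deficient tumors and 11.62 ± 0.60 in control tumors (SD, n = 4 and 5, adjusted p = 0.422). Rps12 was not level among the controls, at 10.95 and 10.98 in control tumors 1 and 2 and 12.02, 11.98 and 12.17 in control tumors 3 to 5. Snora3 minus Rpl27a differed by 1.55 (adjusted p = 0.0518). This pair was at -0.95, -0.25, -0.95 and -0.74 in deficient tumors and -1.31, -1.47, -2.93, -2.77 and -2.86 in control tumors. Rpl27a was at 11 and 11.1 in control tumors 1 and 2, against 12.23, 12.27 and 12.32 in control tumors 3 to 5. By the exact test 7 of 25 pairs had an unadjusted p under 0.05.

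Against normal thymocytes some hosts moved with their RNAs. Ncl, which encodes nucleolin, a major nucleolar protein, rose by 3.13 in deficient tumors (adjusted p = 7.61e-06), where its RNAs Snora75 and Snord82 rose by 3.12 and 2.45. In normal thymocytes Ncl was at 9.34, 7.71 and 9.28, with normal sample 2 far below the others. Wdr43, a factor of small subunit assembly, rose by 2.39 (adjusted p = 3.8e-06) and its Snord53 by 4.08. The difference between them was 1.68 (adjusted p = 0.0197). Snord53 minus Wdr43 was 1, 0.78, 0.53 and 0.08 in deficient tumors and 0.38 and 0.47 in control tumors 1 and 2. It was -1.85, -1.3 and -1.62 in control tumors 3 to 5 and -1.24, -0.81 and -1.2 in normal thymocytes. The part of this split among the control tumors in the difference was not tested. Haus6, a subunit of the augmin complex of the spindle, rose by 2.09 (adjusted p = 3.56e-05) and its Scarna8 by 2.21. Ipo7, an import receptor for ribosomal proteins, rose by 4.36 (adjusted p = 6.05e-06) while its Snora23 rose by 1.11 (adjusted p = 0.00346), a difference of -3.25 (adjusted p = 9.04e-05). In normal thymocytes Ipo7 was at 7.31, 4.98 and 7.07 and Snora23 minus Ipo7 at 2.08, 4.01 and 1.44. The size of this difference thus rests in part on normal sample 2. Rbmx, which encodes an RNA-binding protein, fell by 1.09 (adjusted p = 0.00307) and its Snord61 fell by 3.92. Over the 25 pairs, 6 members rose and 7 fell relative to their hosts in limma. None of the 25 could pass 0.05 in the exact test, whose smallest p with 35 splits is 0.0571.

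**Figure D4:**
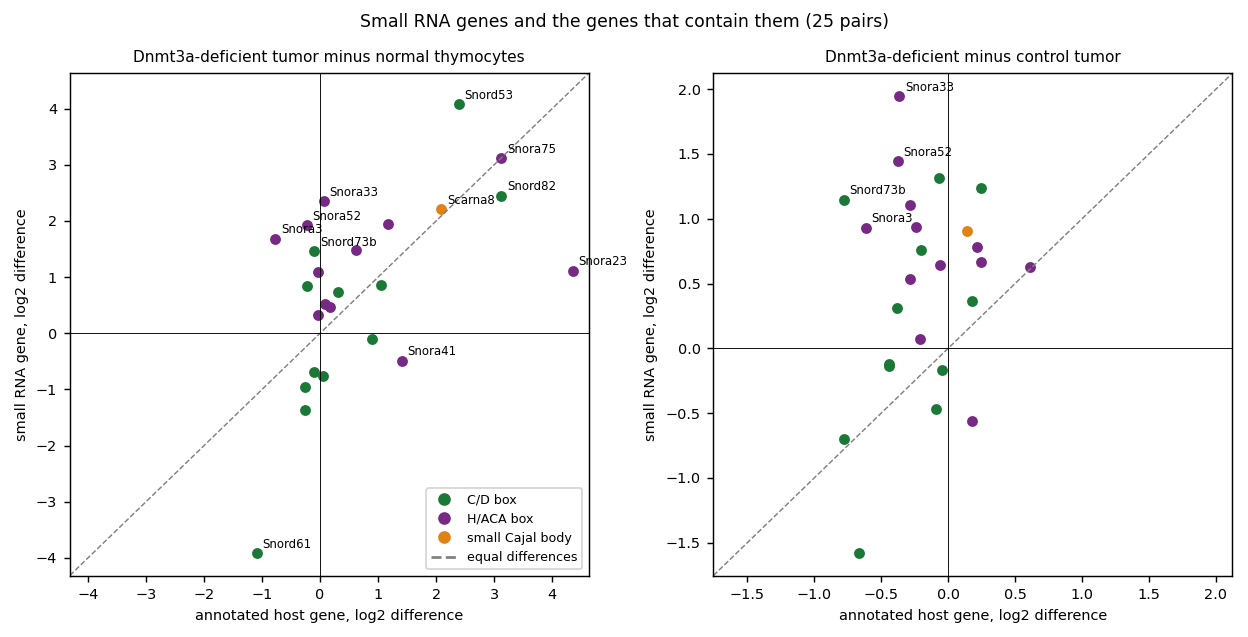
Difference in log2 expression of each small RNA gene (vertical) against that of the gene that contains it (horizontal), for deficient tumors minus normal thymocytes (left) and deficient minus control tumors (right), 25 pairs. The dashed line marks equal differences. Snora75 lies near the line on the left, Snora23 far below it, and Snora33 above it in both panels.

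The promoters of 3 of the hosts that rose with their RNAs are shown, to mark CACGTG, a sequence that MYC protein binds. The tumors arose with MYC, and its part in these rises was not tested. Each window runs from 150 bases before to 25 bases after the RefSeq start (GRCm38.p6), 5′ to 3′ in the direction of the gene, with CACGTG in capitals.
Wdr43 promoter, chr17:71616065-71616239, plus strand: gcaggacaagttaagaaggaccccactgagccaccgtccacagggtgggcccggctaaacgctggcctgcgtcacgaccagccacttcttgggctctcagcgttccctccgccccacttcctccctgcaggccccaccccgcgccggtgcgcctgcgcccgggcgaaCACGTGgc
Ipo7 promoter, chr7:110018165-110018339, plus strand: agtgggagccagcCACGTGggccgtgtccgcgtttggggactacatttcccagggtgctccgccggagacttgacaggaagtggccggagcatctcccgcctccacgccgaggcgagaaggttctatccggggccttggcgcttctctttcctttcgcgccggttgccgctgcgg
Ncl promoter, chr1:86359431-86359605, minus strand: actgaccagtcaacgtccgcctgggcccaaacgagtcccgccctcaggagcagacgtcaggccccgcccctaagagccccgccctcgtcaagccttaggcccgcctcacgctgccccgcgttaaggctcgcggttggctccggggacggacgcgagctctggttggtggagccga
CACGTG reads the same on both strands. It starts at position 18 after the Wdr43 start and 137 bases before the Ipo7 start, and these letters are not in the Ncl window. In windows of 300 bases (250 before to 50 after the start), 6 of 31 host genes (19.4%) held it, against 2187 of 27025 genes (8.1%). The 6 are Wdr43, Ipo7, Eef2, Rpl13a, Rpl23 and Gm36220. Haus6, which rose with its Scarna8, is not among them. Between deficient tumors and normal thymocytes Eef2 differed by 0.05 (adjusted p = 0.784) and Rpl23 by 0.63 (adjusted p = 0.00599).

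RNAs of the same host did not always move together. In 9 pairs of members inside 1 annotated gene, 4 differed in their change between deficient tumors and normal thymocytes in limma. Rpl13a contains Snord33 and Snord35a, both described in mouse and hamster cells as mediators of the response to lipid stress. Snord33 minus Snord35a was -2.05, -1.75, -1.63 and -1.93 in deficient tumors, -1.80, -2.28, 0.84, 0.38 and 0.53 in control tumors and 1.29, 0.76 and 1.13 in normal thymocytes. Control tumors 1 and 2 lay with the deficient tumors and the other controls at the low end of the normal samples or below. Between deficient tumors and normal thymocytes this was a change of -2.90 (adjusted p = 0.00299). Inside Snhg12, Snora16a minus Snora44 changed by -3.24 (adjusted p = 0.00122). This pair was at -1.43 to -0.36 in deficient tumors and -0.69 and -1.14 in control tumors 1 and 2. It was at 1.33 to 1.64 in the other controls and 2.22 to 2.71 in normal thymocytes. Inside Rps3a1, Snord73a minus Snord73b changed by -2.16 (adjusted p = 0.00971). It was at -3.62 to -3.27 in deficient tumors and -3.08 and -2.97 in control tumors 1 and 2. The other controls were at -0.92 to -0.46 and normal thymocytes at -1.49 to -1.11. Inside 2410006H16Rik, Snord49a minus Snord49b changed by -1.49 (adjusted p = 0.0367). It was at -3.11 to -2.9 in deficient tumors and -3.44 and -3.02 in control tumors 1 and 2. The other controls were at -1.24 to -0.88 and normal thymocytes at -1.56 to -1.44. By contrast Snora73a minus Snora73b, inside Snhg3, changed by 0.27 (adjusted p = 0.329). In all 4 called pairs control tumors 1 and 2 lay with or near the deficient tumors, and the other controls lay apart from them. No fit of the pairs held the percentile class of the arrays as a term, so its part in these changes was not tested. Between deficient and control tumors none of the 9 pairs was called in limma, and 1 had an unadjusted exact p under 0.05 (Snord73a minus Snord73b, -1.85, exact permutation p = 0.0159, adjusted p = 0.0959 in limma).

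**Figure D5:**
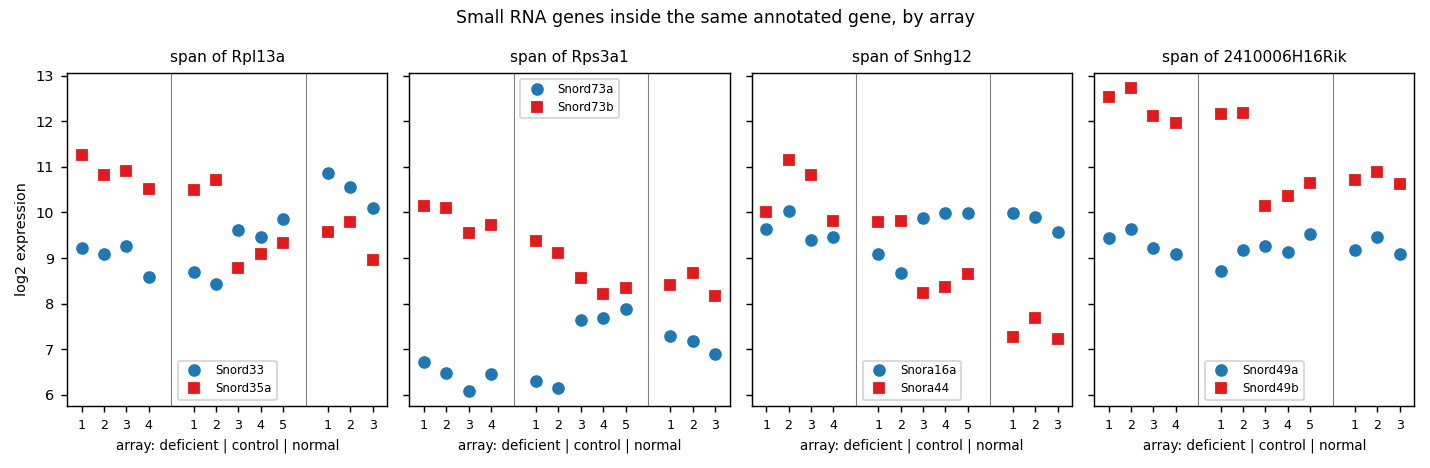
Log2 expression of 4 pairs of small RNA genes that lie inside the same annotated gene, on the 4 deficient tumors, 5 control tumors and 3 normal samples. Snord35a, Snord73b, Snora44 and Snord49b (squares) are high in deficient tumors and in control tumors 1 and 2, relative to normal thymocytes, while their neighbours (circles) are not. The gap between a square and a circle has no meaning by itself, since each probe set has its own scale.

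Genes for the proteins that hold these RNAs were higher in tumors than in normal thymocytes, and none was called between the tumor groups. The arrays read RNA, and protein levels were not measured. The counts here and in the next paragraph stand beside 18.7% of all genes called higher and 19% lower in deficient tumors than in normal thymocytes, and 13% and 11.3% in control tumors. Among the brighter 50% of genes 56.4% were called in either direction between deficient tumors and normal thymocytes. Of the 5 genes for C/D particle proteins all 5 were higher in deficient tumors than in normal thymocytes and 4 in control tumors. Fbl, the methyltransferase, rose by 1.18 (adjusted p = 7.95e-05) and Nop58, a core scaffold protein, by 2.81 (adjusted p = 4.44e-05) in deficient tumors. All 4 genes for H/ACA proteins were higher in both tumor groups. Dkc1, the pseudouridine synthase, was up by 3.14 in deficient tumors (adjusted p = 3.77e-06) and 3.24 in control tumors (adjusted p = 3.73e-06). In normal thymocytes Dkc1 was at 7.1, 6.03 and 7.49 and Nop58 at 7.73, 6.45 and 7.97, both lowest in normal sample 2. Between deficient and control tumors Dkc1 differed by -0.10 (adjusted p = 0.851) and Fbl by 0.03 (adjusted p = 0.928). Of 11 particle assembly factors 6 were higher in deficient tumors than in normal thymocytes, among them Naf1 (2.37, adjusted p = 4.12e-05) and Shq1 (1.62, adjusted p = 1.51e-05), which load dyskerin. Of 18 genes for intron debranching and trimming 14 were higher, led by the exosome nuclease Dis3 (2.73, adjusted p = 3.35e-07).

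Genes that make spliceosomal RNAs were called higher more often than lower, whereas Rnu12 was lower. Of 12 snRNA transcription genes 8 were higher and 1 lower in deficient tumors than in normal thymocytes, and of 14 Integrator subunits, which cleave nascent snRNA, 7 were higher and 1 lower. Of 20 genes for snRNA capping, export and assembly by the SMN complex 10 were higher and 1 lower, with Tgs1, the cap methylase, up by 2.75 (adjusted p = 4.83e-05). The Integrator list (50% higher, 7.14% lower) and the SMN list (50% and 5%) were called about as often as the brighter genes (56.4%). Of 15 genes for Sm and LSm proteins, which form the ring around snRNAs, 5 were higher and 1 lower. That share is close to the 37.6% of all genes called. Of 16 genes for spliceosome proteins that bind snRNAs 7 were higher and 3 lower. Among 7 measured non-coding snoRNA hosts 3 were higher, and of Terc, Rmrp and Rn7sk only Terc was called (4.60, adjusted p = 0.0031). Of the 125 genes in all these lists limma called none between deficient and control tumors. At an unadjusted p under 0.05, 38 (30.4%) were higher and 3 lower. This stands against 12.6% of all genes higher, and 20.9% of the brighter 50% of genes.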

How the data were processed

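RNA was amplified with a whole-transcript kit and labelled with biotin, per the labels' protocols. The authors deposited log2 values for each probe set. According to the submitters' processing notes they used RMA (background correction, quantile normalization and summary of probes) within Affymetrix Expression Console, with no version named. RMA usually leaves arrays with near equal percentiles, and the deposited values did not have them. No source used here says whether arrays were normalized in groups. No further normalization was applied. Values are relative to an array's total signal and cannot show the amount of RNA in a cell.

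Of 23858 probe sets, 20870 had 1 gene symbol, 1453 several and 1535 none. The first were reduced to 19309 genes by the highest mean. Snora21, Snora3 and Snord58b had 2 probe sets that differed by at most 0.382, 0.082 and 0.27 on an array, and Scarna17, Snora30 and Snord118 had 2 with the same values. Near-identical copies, such as those of U3 or U17, may share probes.

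The tests used limma 3.58.1 (R 4.3.3) with 3 group means over 12 arrays (9 residual degrees of freedom, prior 4.17). Tests were two-sided and adjusted p-values are Benjamini-Hochberg over the 19309 genes. Calls needed an adjusted p under 0.05. Errors after ± are standard errors for differences and SD for means. Differences of paired genes were tested by limma, adjusted together with all genes, and by an exact permutation test over the samples. The number of arrays limits the precision. Data were simulated for 19309 genes, a small part of them with known changes. A log2 change of 1 was recovered for 52.5% of changed genes between deficient and control tumors. It was recovered for 58.6% between deficient tumors and normal thymocytes and for 61.3% between control tumors and normal thymocytes. A change of 2 was recovered for 96.2%, 93% and 92.2%. The simulation had independent noise, no split among control tumors and fewer changed genes than were called against normal thymocytes. Recovery in the real data may differ.

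Members, companion lists and tests were chosen with earlier results of these data known. The rule for named genes took, per comparison and class, up to 6 called members in each direction, or the 2 with the smallest p, with their hosts and up to 4 genes of each companion list. The text names part of these. Snord14e, Snord42b, Snord57 and members named as ends of a range or as pairs of a host were chosen after their values were seen. Alternatives were another quantile normalization, median centring, cyclic loess, 75th percentile scaling, a filter on dim genes, other probe sets, a trended variance, fits of 2 groups, a replicate block, each array left out, and control tumors 1 and 2 left out. The 75th percentile class as a term, and fits within a class, were added after seeing the data. Same-numbered samples of different groups correlated at -0.134 to 0.338 in their deviations from group means, and others at -0.319 to 0.209. With so few arrays this cannot settle whether the numbers pair samples, and the main fit did not pair them.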

Additional observations from a re-analysis of the deposited data

Results flagged for a closer look

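Of 112 groups of 4 or 5 tumors tested, 3 held an array set apart from the rest of its group, where chance alone flags about 1 in 20 groups. Snord14e, a copy of U14, was at 11.35 in deficient tumor 1 and at 10.40 to 10.42 in the other deficient tumors. Snord57, inside Nop56, was at 11.59 in deficient tumor 4 and at 11.78 to 11.80 in the other deficient tumors. Snord42b, inside Rpl23a, was at 8.52 in control tumor 1 and at 8.84 to 8.94 in the other control tumors. None of the 3 genes was called between deficient and control tumors.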

How the results depend on the processing

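Between deficient and control tumors, 10 members were higher and 0 lower. Percentages in this section are the share of all genes called in either direction in the same fit, here 0.818%. The number higher was 16 after median centring (1.96%) and 29 (with 9 lower) without control tumors 1 and 2 (25.3%). It was 2 with the 75th percentile class as a term (0.347%). It was 0 with only the arrays of the higher class (0.0363%) or with only these groups in the fit. The fit of these groups alone left 1 gene of 19309 called, and 32 members were higher and 1 lower at an unadjusted p under 0.05. Leaving out 1 array at a time gave 3 to 23 higher and 0 to 1 lower. The count was 23 without control tumor 1 (5.24%) or 2 (7.68%), and 3 without control tumor 3 (0.145%) or deficient tumor 4 (0.0829%). Between deficient tumors and normal thymocytes, 8 members were lower (37.6%). The number was 14 after 75th percentile scaling (61.1%), which moves the median of all genes to -0.49. It was 13 with only these groups in the fit (44.7%) and 1 with the class as a term (18.4%). Leaving out 1 array gave 25 to 30 higher and 7 to 8 lower (28% to 34.9%). With the class as a term the difference from normal turned in 12 members: 8 called in either fit, Snord15a (0.30), Snord35a (-0.10), Snord49b (-0.20), Snord73a (0.82), Snora16a (0.88), Snora41 (1.61), Snora52 (-0.21) and Scarna13 (-0.62), and 4 called in neither, Snord16a, Snord37, Snord58b and Rnu7. Between control tumors and normal thymocytes, 7 were lower (24.4%), against 11 after 75th percentile scaling (31.9%). Leaving out 1 array there gave 7 to 14 higher and 3 to 9 lower (16.6% to 26.3%). With the replicate block 9 members were higher between the tumor groups (0.539%). That fit gave 32 higher and 9 lower for deficient tumors against normal thymocytes (35.9%), and 12 and 8 for control tumors (24%). Whether the numbers pair the samples is not known. The cause of these shifts was not tested. Fits that left arrays out also rest on fewer arrays, and the part of that was not tested either. The class term is estimated from the control tumors alone, since the other groups each lie in 1 class.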
